A study of Mus musculus with 12 samples.

Results

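Hair follicle stem cells (HFSCs) of wild-type C57BL/6 mice treated with tamoxifen, the control group, were compared with HFSCs of untreated young wild-type C57BL/6 mice on 1-colour Agilent microarrays. The comparison takes up 4 of the 12 arrays of the series and was made in 2 pairs: control minus young without plucking, and control plucked minus young plucked. Control mice were 12 weeks old and had received 2 mg of tamoxifen per mouse by intraperitoneal injection for 5 days. Young mice were 8 weeks old, and the labels name no injection for them. In the plucked pair, cells were taken 3 days after hair had been pulled out by hand. All 4 samples were sorted by flow cytometry for high CD34, high ITGA6 and no SCA1, and RNA in nanogram amounts was amplified before labelling. The remaining 8 arrays hold HFSCs of aged mice (at least 22 months, wild-type C57BL/6) and of Col17a1 conditional knockout (cKO) mice (deletion from the K14 promoter, 12 weeks, with tamoxifen, strain not labelled), each without and with plucking, and total and interfollicular epidermis of young and aged mice. Each group had 1 array, and the labels do not say whether samples came from separate animals, so p-values take in no more than the variation among these arrays, part of which may be technical.

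HFSCs sit in the bulge of the follicle, where they rest through telogen under BMP signals and are woken by Wnt signals and by plucking. Tamoxifen is a selective oestrogen receptor modulator that is widely used to switch on Cre recombinase fused to a mutant oestrogen receptor. Wild-type mice given the same injections serve as controls for the drug itself. The control group matches the cKO group in age and drug, and is set here against a younger group without the drug.

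The design does not separate tamoxifen from its surroundings. Both control arrays lay on slide 2 and both young arrays on slide 1, and the scans differed in the same way. Control samples were in slide row 2 and young samples in slide row 1. Drug, age, slide, scan and slide row therefore cannot be told apart in any value below. Of the spots, 59.97% were well above background on the control and 64.23% on the control plucked array, against 56.08% on the young and 62.67% on the young plucked array. The unplucked control array had the lowest median correlation with the other HFSC arrays (0.891, against 0.927 on the control plucked, 0.927 on the young and 0.941 on the young plucked array). Control and young correlated at 0.903 over probes without plucking and at 0.953 after it.

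The cells on both sides had the transcripts of the sort. All levels are log2 values, with the 75th percentile of each array at 0. Cd34, the surface marker of bulge stem cells, stood at 6.68 on the control and 4.39 on the control plucked array, against 6.46 on the young and 3.62 on the young plucked array. Itga6, the integrin of the gate, was at 4.27 and 4.49 in control and at 4.54 and 4.19 in young cells, unplucked first. Ly6a, which encodes SCA1, the marker of interfollicular epidermis that the gate excludes, was at -3.15 and -2.95 in control and at 0.30 and -2.05 in young cells. The highest Ly6a signal of the 4 was that of the unplucked young array. The Y-linked genes Ddx3y, Eif2s3y, Kdm5d and Uty were well above background on all 4 arrays. The X-linked Xist was well above background on the plucked arrays only, at -3.56 in control and -3.26 in young cells. On the unplucked arrays it was not well above background, at -6.09 in control and -5.66 in young cells.

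Across the whole table no gene passed: 0 of 25429 tested genes had an adjusted p under 0.05 (limma over the 8 HFSC arrays with mouse type and plucking as terms, 3 residual degrees of freedom, smallest adjusted p = 0.209). At an unadjusted p under 0.05, 1166 genes were higher (4.59% of those tested) and 1054 lower (4.14%). The median difference over all genes was 0.02 on the log2 scale and the median standard error (SE) 0.50. Each SE below comes from this fit and takes in how plucking differences varied among all mouse types, aged and cKO included. It is not a spread of replicates within a group. What follows describes levels and differences, none of which passed the test over all genes.

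A difference was counted as going the same way when the gene was at least 2-fold apart in the same direction in both pairs, with the brighter array of each pair well above background. By that rule 775 genes were higher in control cells (3.05% of the genes tested) and 860 lower (3.38%), while 805 genes were at least 2-fold apart in opposite directions in the pairs (3.17%). Ignoring size, 30.7% of genes were higher and 28.6% lower in both pairs. The pairs differed in width: the unplucked pair had 4737 genes at least 2-fold higher (18.6%) and 4391 lower (17.3%), against 2298 (9.04%) and 2878 (11.3%) in the plucked pair. The SD of the differences was 1.48 without plucking and 0.97 after it. The differences of the pairs correlated at 0.166 across genes, a description only, since genes are no replicates, and at 0.211 over the 18822 genes well above background on all 4 arrays. A test of the difference between the pairs passed for 0 genes (limma, smallest adjusted p = 0.96, 1314 or 5.17% at an unadjusted p under 0.05).

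**Figure D1:**
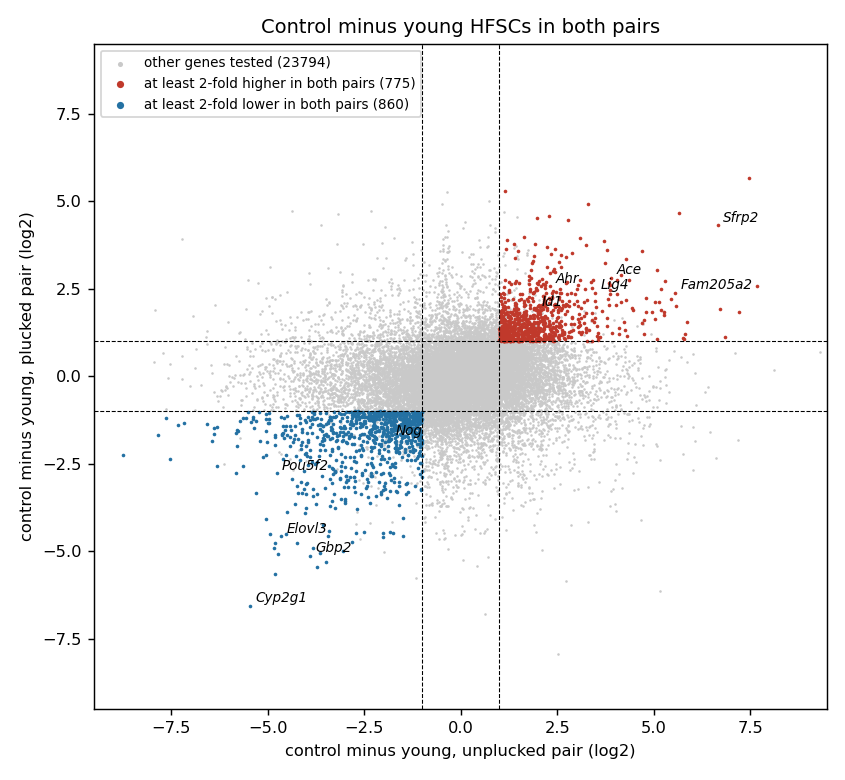
Each point is 1 of 25429 genes tested, with the log2 difference control minus young in the unplucked pair on the x axis and in the plucked pair on the y axis. Dashed lines mark 2-fold, the 775 genes higher in both pairs are red, the 860 lower in both are blue, and the cloud is wider along x (SD 1.48) than along y (0.97).

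Many of these genes were dim, that is, not well above background, on some arrays. Of the 775 higher genes, 412 were well above background on all 4 arrays, 261 were dim on both arrays of one group and 102 on 1 array. Of the 860 lower genes the numbers were 462, 182 and 216. At least 4-fold apart in both pairs were 113 genes higher and 162 lower in control cells. A RefSeq symbol was held by 461 of the 775 and by 544 of the 860. Among the higher genes with several probes in use, 113 of 231 had all probes on the same side, and among the lower genes 130 of 239. Genes close to the 2-fold line show how fine it is: Prrc2b stood at 1.001 and 1.357 (log2, unplucked and plucked pair) and counted as higher, whereas Laptm4b, at 1.53 and 0.997, did not.

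Among genes well above background on all 4 arrays, those furthest apart in both pairs on the higher side had varied functions. Ace, which encodes angiotensin-converting enzyme (mm9 chr11:105850398-105850457), stood at 3.51 on the control and 2.12 on the control plucked array, against -0.40 on the young and -0.69 on the young plucked array. The difference was 3.36 ± 0.53 (log2, SE, n = 2 pairs, limma adjusted p = 0.53), a 10.2-fold ratio. The groups did not overlap, which choosing genes by these same differences favours. Ahr, the receptor for dioxin-like and other planar aromatic ligands (mm9 chr12:36182724-36182783), stood at 0.46 and 0.10 in control cells, against -1.85 and -2.47 in young cells. Its difference was nearly equal in both pairs, 2.31 without plucking and 2.57 after it, and 2.44 ± 0.36 in the fit (adjusted p = 0.53). Lig4, the DNA ligase of non-homologous end joining (mm9 chr8:9970290-9970349), was at 0.47 and -0.44 in control cells and at -3.02 and -2.83 in young cells (2.94 ± 0.56, adjusted p = 0.551).

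Of the 10 genes named here on the higher side, Fam205a2 had the widest gap in the fit (3.97 ± 1.10, adjusted p = 0.571), with 4.65 and 1.83 in control cells and -0.90 and -0.56 in young cells, and 3 of its 4 probes were higher. Ntn1, the guidance cue netrin-1, was at 1.91 and 1.47 in control cells and at -0.29 and -0.91 in young cells, a 4.92-fold ratio, with both probes higher. Arrdc4, an alpha-arrestin, was 4.98-fold higher, but only 1 of its 2 probes was higher. The others named by the same rule were C2, a complement component, the zinc finger gene Zfp719, Slc18a2, the vesicular monoamine transporter, and Fam76b, with ratios of 8.78, 5.67, 8.21 and 4.74. All 10 were higher in both pairs, which is how they were chosen, with adjusted p of 0.53 to 0.571 (limma).

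Where a gene was not well above background on either array of one group, only a bound on the ratio is given: the mean of the bright group against, on each dim array, the higher of the gene's own signal and the lowest signal of any probe well above background. Sfrp2, a secreted Wnt modulator (mm9 chr3:83577864-83577923), stood at 0.81 and -2.09 in control cells and at -5.85 and -6.41, not well above background, in young cells, and was at least 9.83-fold higher in control cells (adjusted p = 0.571). In cKO cells, which share drug, age and slide with control, Sfrp2 was not well above background (-5.24 and -6.39). In aged cells it was well above background, at -1.72 and 0.53. Hgf, hepatocyte growth factor, stood at -1.65 and -2.43 in control cells and at -4.74 and -6.39, not well above background, in young cells, at least 3.73-fold (adjusted p = 0.53). Il7, a lymphocyte growth factor made by keratinocytes of the follicle, Olfml1 and Ccdc110 were at least 3.72-, 3.33- and 3.11-fold higher in control cells. For all 5, both control arrays and neither young array rose above background, which is how they were chosen.

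On the lower side, Pou5f2, a POU domain factor (mm9 chr13:78165362-78165421), stood at -3.64 and -2.29 in control cells, against 1.13 and 0.48 in young cells (-3.77 ± 0.93, adjusted p = 0.571, a 13.6-fold ratio). Champ1, a zinc finger protein of chromosome alignment, was at -2.89 and -1.81 in control cells and at 0.22 and 0.90 in young cells (-2.91 ± 0.48, adjusted p = 0.535). Both control arrays lay below the 6 other HFSC arrays, and the slide order held too, with 0.08 and -0.32 in cKO cells and 0.28 and 1.24 in aged cells. Acss2, which makes acetyl-CoA from acetate, was at -1.07 and -2.55 in control cells and at 1.01 and 0.81 in young cells, with both probes lower. Map2k3, a kinase upstream of p38, Akr1b10, an aldo-keto reductase, Zcchc4, an RNA methyltransferase, Sbno2, Btbd8 and Pced1a were 4.34- to 8.83-fold lower. For Sbno2 and Btbd8, 1 of 2 probes was higher instead, and adjusted p ran through 0.535 for Champ1, 0.551 for Map2k3 and 0.571 for the rest (limma).

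Dim in control cells were Cyp2g1, Ikzf4, Zfp239, Elovl3 and S100a9. Cyp2g1, a cytochrome P450 known from olfactory mucosa (mm9 chr7:27606111-27606170), was not well above background in control cells (-6.19 and -6.65) and stood at -0.72 and -0.10 in young cells, at least 15.3-fold lower in control cells (adjusted p = 0.53). On the aged and cKO arrays it lay between -5.17 and -3.50, well above background on 1 of the 4, so both young arrays lay above the 6 others and no order was read among the dim arrays. Elovl3, a fatty acid elongase of sebaceous gland cells, was at least 12.5-fold lower, the zinc finger genes Ikzf4 and Zfp239 at least 9.36- and 7.06-fold, and S100a9, a calprotectin subunit, at least 5.42-fold.

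**Figure D2:**
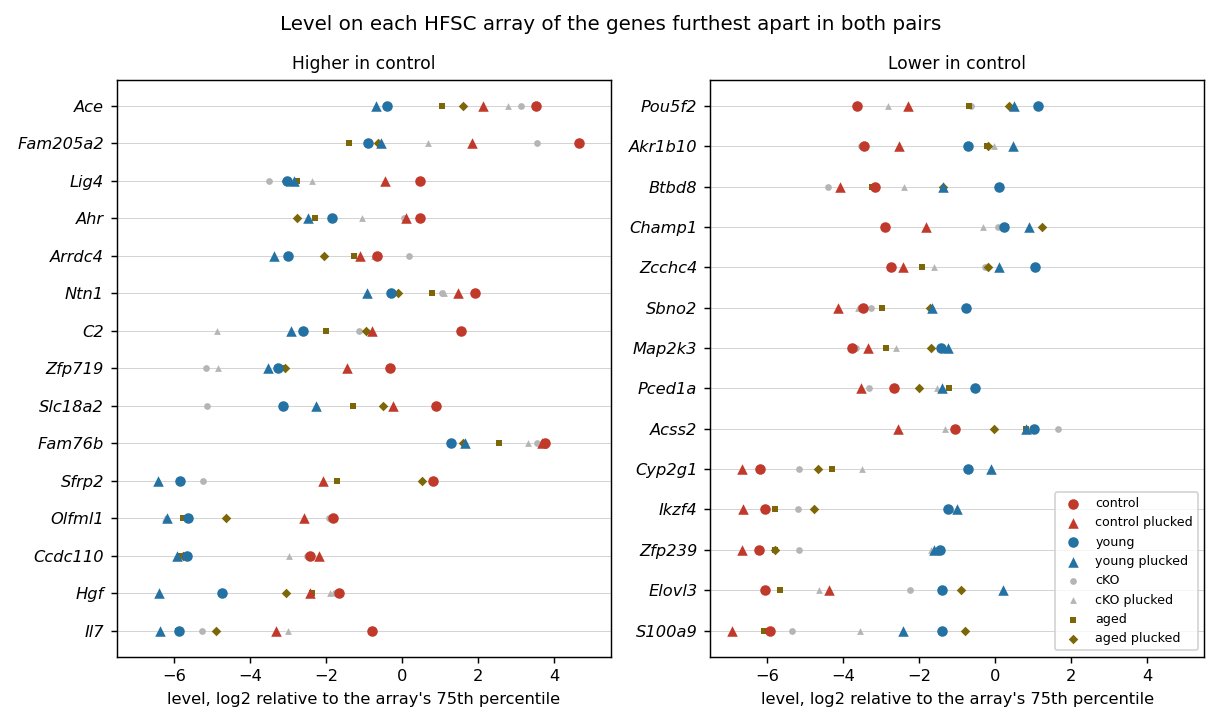
Level (log2, 75th percentile of the array at 0, x axis) on each of the 8 HFSC arrays for the 15 genes named on the higher side (left) and the 14 on the lower side (right). Control arrays (red) and young arrays (blue) do not overlap for any of them. The genes were chosen by their differences on these same arrays, so nothing is read from the lack of overlap. The cKO (grey) and aged (brown) arrays fall on either side.

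The same genes were also compared between arrays of the slides that share none of the 4, which cannot measure the part of the slide. HFSCs of cKO mice lay on slide 2 and those of aged mice on slide 1, so cKO minus aged also sets slide 2 against slide 1, together with the deletion, age and tamoxifen. In cKO against aged, 704 genes were at least 2-fold higher in both pairs (2.77% of genes tested) and 1118 lower (4.4%). Of the 775 genes higher in control cells, 81 were also higher there, 10.5% of the 775 and 11.5% of the 704, and 34 (4.39%) were at least 2-fold lower there. Of the 860 genes lower in control cells, 121 were also lower, 14.1% of the 860 and 10.8% of the 1118, and 14 (1.63%) were at least 2-fold higher. Over 25425 genes the differences of the 2 comparisons, averaged over the pairs, correlated at 0.184, which is a description across genes.

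The order of the 8 HFSC arrays shows which group stood apart. Among the 775 higher genes, both control arrays lay above the 6 others for 212 (27.4%) and both young arrays below the 6 others for 222 (28.6%), with 34 in both sets. All 4 arrays of slide 2 lay above all 4 of slide 1 for 202 (26.1%), which can also be in the first sets, and 283 (36.5%) showed none of these orders. Among the 860 lower genes, the control arrays lay below the 6 others for 235 (27.3%), the young arrays above them for 150 (17.4%), and slide 2 below slide 1 for 193 (22.4%), with none of these orders in 383 (44.5%). Over all genes tested these shares were 3.28%, 5.58% and 4.31% on the higher side and 3.42%, 3.02% and 3.84% on the lower side. Counting genes by these same arrays raises such shares by construction, and among dim arrays an order compares background signals, so nothing is read from the shares lying above those of all genes. The slide order held, for example, for Fam205a2, at 3.55 and 0.67 in cKO cells and -1.39 and -0.63 in aged cells, and for Ahr, at 0.06 and -1.05 in cKO cells and -2.29 and -2.77 in aged cells. Lig4 did not hold the slide order: it was at -3.51 and -2.37 in cKO cells and at -2.76 and -3.05 in aged cells. The unplucked cKO array was dim for Lig4.

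**Figure D3:**
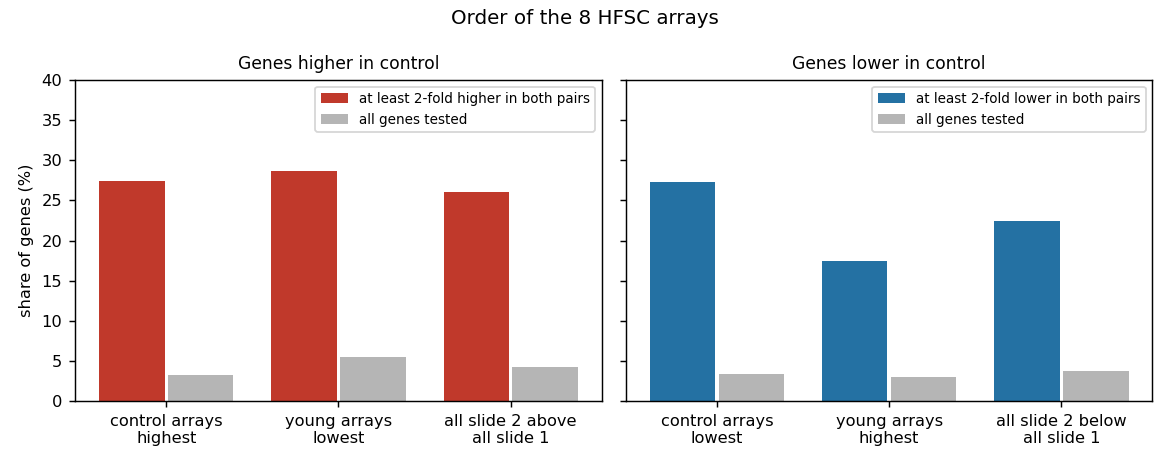
Share of genes (%, y axis from 0) in which the control arrays, the young arrays or the slides stood apart among the 8 HFSC arrays, for genes at least 2-fold higher (left) or lower (right) in both pairs and, in grey, for all genes tested. Slide order applied to 26.1% of the higher and 22.4% of the lower genes, and genes in the slide bars can also be in the other bars.

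Genes of the oestrogen pathway did not go one way. The receptor Esr1 was not well above background on either control array (-6.17 and -6.67) or on the unplucked young array (-5.84), and stood at -3.67 on the plucked young array. Its probe was bright on both cKO arrays (-0.48 and -1.22), which share drug and slide with control. The probe labelled Esr2, for the second nuclear receptor, was bright everywhere, at 6.19 and 5.89 in control cells and at 5.62 and 5.79 in young cells (0.33 ± 0.41, adjusted p = 0.787). Whether so bright a probe measures Esr2 alone was not tested, so these values are not read as the receptor's level. Of 20 list genes, 14 were tested, 0 passed (limma, 1 at an unadjusted p under 0.05), 4 were higher (28.6%) and 3 lower (21.4%) in both pairs, beside 30.7% and 28.6% of all genes, with a median of -0.03 beside 0.02 for all genes. The classical targets Pgr and Tff1 were dim on all 4 arrays, and Greb1 was at -2.78 and -2.87 in control cells and at -3.28 and -3.01 in young cells.

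Pdzk1, a scaffold protein and oestrogen-responsive gene in human breast cells, was the 1 member of that list that was at least 2-fold apart in both pairs (mm9 chr3:96674564-96674623). It stood at 2.03 and 1.79 in control cells and at 0.26 and 0.23 in young cells, 1.67 ± 0.35 (adjusted p = 0.562), a 3.18-fold ratio with both probes higher. It was at 1.59 and 1.42 in cKO cells and at 0.36 and -0.31 in aged cells, so its order followed the slide and the drug together. The palindromic oestrogen response element, searched as GGTCA and TGACC with 3 bases of any kind between them, on both strands, from 250 bases before to 50 after the start in RefSeq promoters (GRCm38.p6), was present in 18 of 27025 promoters (0.0666%). It was in 0 of the 395 promoters found for the higher genes and 0 of the 450 for the lower genes, which says only that these letters were not in these windows.

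Of 27 drug metabolism genes tested, 0 passed (4 at an unadjusted p under 0.05), 10 were higher (37.0%) and 5 lower (18.5%) in both pairs, beside 30.7% and 28.6% of all genes, with a median of 0.20. Ahr has been given above. Its target Cyp1b1 was at 1.82 and 1.34 in control cells and at 2.95 and 1.19 in young cells, and Cyp1a1 was dim on both control arrays and on 1 of 2 young arrays. The drug efflux pump Abcb1a was at -1.75 and -2.84 in control cells and at -3.71 and -3.48 in young cells (1.30 ± 0.43, adjusted p = 0.571), with 1 of 2 young arrays well above background. Abcc1, another efflux pump, went the other way, at -4.91 and -1.23 in control cells, with 1 of 2 well above background, and at 0.06 and 0.00 in young cells (-3.10 ± 0.95, adjusted p = 0.571).

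Cholesterol synthesis, whose late steps tamoxifen is known to inhibit, had more genes on the lower side. Of 24 tested, 0 passed (1 at an unadjusted p under 0.05), 11 were lower (45.8%) and 3 higher (12.5%) in both pairs, beside 28.6% and 30.7% over all genes, with a median of -0.25. The early enzyme Hmgcs1 was at 3.57 and 4.14 in control cells and at 3.87 and 3.80 in young cells. Among later enzymes, Hsd17b7 was at -2.94 and -0.40 in control cells and at -0.04 and 0.39 in young cells (-1.85 ± 0.63, adjusted p = 0.571). Ebp, the sterol isomerase that binds tamoxifen, was at 0.31 and 1.84 in control cells and at 2.31 and 2.07 in young cells (-1.12 ± 0.54, adjusted p = 0.584). Tm7sf2, a sterol reductase of the same stretch, went the other way, at 0.80 and -1.56 in control cells and at -2.56 and -2.54 in young cells (2.17 ± 1.15, adjusted p = 0.602), with 1 of its 2 probes higher. The unplucked pair held most of the gap: the list median was -0.36 there and -0.02 in the plucked pair. In cKO against aged cells, which also differ in tamoxifen and slide, 7 of the 24 were higher and 6 lower in both pairs. The matching shares of all genes were not counted for that comparison. The list median there was 0.04 for the mean of both pairs, and a part of the drug was not tested.

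Most genes of stem cell identity lay within 2-fold, and 2 of 22, Wif1 and Runx1, were at least 2-fold lower in both pairs (3.38% of all genes were). Of 22 HFSC and bulge genes, 0 passed (2 at an unadjusted p under 0.05), 12 were higher (54.5%) and 5 lower (22.7%) in both pairs, beside 30.7% and 28.6% of all genes, and the median was 0.15, though 0.00 with normexp background correction and quantile scaling. Krt15, a bulge keratin, stood at 6.97 and 5.99 in control cells and at 6.81 and 5.84 in young cells. Lhx2, a bulge transcription factor, was at 6.45 and 6.40 in control cells and at 6.43 and 6.15 in young cells. These differences were far inside the standard errors of the fit (0.15 ± 0.37 and 0.13 ± 0.32). Sox9 (0.74 ± 0.33), Tbx1 (0.61 ± 0.33), Nfatc1 (0.50 ± 0.32) and Lgr5 (0.99 ± 0.35, adjusted p = 0.571), all regulators or markers of these cells, were higher in both pairs without passing. Runx1, a factor of follicle stem cell activation, was at -2.31 and -0.41 in control cells and at 0.34 and 0.72 in young cells (-1.89 ± 0.48, adjusted p = 0.571), but 1 of its 2 probes was higher. The slide order held for Runx1 too, with -1.59 and -0.65 in cKO cells and 0.42 and 0.93 in aged cells. Tnc, an extracellular matrix glycoprotein of the bulge, was at -5.58 and -0.46 in control cells, with 1 of 2 well above background, and at 0.31 and -0.19 in young cells, so that its gap lay in the unplucked pair. The Wnt inhibitor Wif1 was at 0.04 and -3.29 in control cells and at 1.11 and -0.50 in young cells.

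Within the BMP pathway, which holds HFSCs at rest, a target and an inhibitor stood on opposite sides. Id1, a direct BMP target (mm9 chr2:152563083-152563142), was at 4.30 and 2.34 in control cells, against 2.34 and 0.44 in young cells. The difference was almost the same in both pairs, 1.95 and 1.90 (1.93 ± 0.33, adjusted p = 0.544, a 3.8-fold ratio). Nog, which encodes the BMP antagonist noggin (mm9 chr11:89162849-89162908), was at -0.66 and -3.0 in control cells and at 1.16 and -1.22 in young cells (-1.80 ± 0.35, adjusted p = 0.559). In cKO cells Id1 was at 3.67 and 1.32 and Nog at 0.18 and -2.59, and in aged cells Id1 was at 2.33 and 0.39 and Nog at 0.65 and -1.37. Id1 of slide 2 was thus higher than Id1 of slide 1 at each plucking state, and Nog lower.

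The other BMP targets lay closer together, and their difference from Id1 was not tested. Id2 was at 2.34 and -0.29 in control cells and at 1.98 and -0.59 in young cells, and Id4 at 1.34 and 1.95 in control cells and at 1.33 and 1.91 in young cells. Id3 was at 3.05 and 0.33 in control cells and at 2.51 and 1.09 in young cells. Smad7, the inhibitory Smad, was at 1.97 and -0.32 in control cells and at 0.63 and -0.97 in young cells (0.99 ± 0.44, adjusted p = 0.579). Bmp4, a ligand, was at 2.35 and -2.61 in control cells and at -1.74 and -2.11 in young cells, with the gap in the unplucked pair. Of 13 BMP genes tested, 0 passed (2 at an unadjusted p under 0.05), 5 were higher (38.5%) and 2 lower (15.4%) in both pairs, beside 30.7% and 28.6% of all genes, with a median of 0.27. Of 14 Wnt and hedgehog targets, 0 passed (1 at an unadjusted p under 0.05), 2 were higher (14.3%) and 6 lower (42.9%), with a median of -0.20. Of 17 hair germ and anagen genes, 0 passed (1 at an unadjusted p under 0.05), 7 were higher (41.2%) and 4 lower (23.5%), and Lef1 and Wnt10b, both of the Wnt pathway, were at least 2-fold lower in both pairs. Lef1 was well above background on 1 of 2 control arrays and Wnt10b on neither.

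Among the 19 lists of pathways and cell identity, the one with the median furthest from 0 was the unfolded protein response. Cells raise these genes when proteins misfold in the endoplasmic reticulum. Of 15 genes, 0 passed (1 at an unadjusted p under 0.05), 10 were lower in both pairs (66.7%, beside 28.6% of all genes) and 1 was higher (6.67%). The median was -0.66, at -0.64 in the unplucked and -0.39 in the plucked pair, and stayed between -0.66 and -0.39 under the 8 alternatives run for lists. Hspa5, the main chaperone of the endoplasmic reticulum, stood at 2.52 and 3.33 in control cells and at 3.62 and 4.12 in young cells (-0.94 ± 0.34, adjusted p = 0.571). The chaperone Hsp90b1 was at 3.57 and 4.24 in control cells and at 4.07 and 4.85 in young cells (-0.56 ± 0.32). Atf4, a transcription factor of this response, was at 5.66 and 5.55 in control cells and at 6.48 and 6.04 in young cells (-0.66 ± 0.40).

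Of the targets of ATF4 on the list, Chac1 and Trib3 were at least 2-fold lower in both pairs, with wide errors, and others were not. Chac1, a glutathione-degrading enzyme, was not well above background in control cells (-5.47 and -4.63) and stood at -3.14 and -1.78 in young cells, at least 3.7-fold lower in control cells (adjusted p = 0.625). Trib3, a pseudokinase, was at -3.47 and -5.02 in control cells, with 1 of 2 well above background, and at -1.75 and -2.10 in young cells (-2.32 ± 1.81, adjusted p = 0.688). Asns, asparagine synthetase, was at -1.03 and 1.60 in control cells and at 1.12 and 1.75 in young cells, so that its gap lay in the unplucked pair. Ddit3, which encodes CHOP, was at -2.93 and 0.11 in control cells and at -0.03 and -0.97 in young cells, apart in opposite directions. Edem1, of protein degradation, was the 1 member higher in both pairs, at -0.24 and 0.27 in control cells and at -1.10 and -0.64 in young cells. In cKO against aged cells 4 of the 15 were higher and 3 lower in both pairs, and the list median was 0.00 without plucking, 0.14 after it and -0.19 for the mean of both pairs. The shares of all genes, ignoring size, were not counted for that comparison.

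The core of the element that ATF4 is known to bind was searched as TGATGNAA on both strands in RefSeq windows of GRCm38.p6 from 250 bases before to 50 after the start. It was found in 4 of the 15 promoters of the list (26.7%), beside 4.06% of all 27025 promoters and 2.58% of the 13057 promoters of genes tested. Trib3, Chac1, Asns and Herpud1 held it, the other 11 did not, and the list was chosen for that biology. Among the genes at least 2-fold higher in both pairs it was in 10 of 395 promoters (2.53%), and among those lower in 9 of 450 (2.0%). A match is a description of letters, not of binding. The 250 bases before the start are shown for the 2 members whose match lies there and whose levels were lower in both pairs, with the match in capitals, in the gene's direction. They are Asns (minus strand, chr6:7693210-7693459) and Chac1 (plus strand, chr2:119350992-119351241).
Asns: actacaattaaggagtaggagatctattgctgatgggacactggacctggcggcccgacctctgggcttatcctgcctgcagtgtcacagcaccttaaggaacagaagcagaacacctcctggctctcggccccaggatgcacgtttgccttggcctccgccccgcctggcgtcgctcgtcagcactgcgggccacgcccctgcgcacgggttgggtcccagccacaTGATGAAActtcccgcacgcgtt
Chac1: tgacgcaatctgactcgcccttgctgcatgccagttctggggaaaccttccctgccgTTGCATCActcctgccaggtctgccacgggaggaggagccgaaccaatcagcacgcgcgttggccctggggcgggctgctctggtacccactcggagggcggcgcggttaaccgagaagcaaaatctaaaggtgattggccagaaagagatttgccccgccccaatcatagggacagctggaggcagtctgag

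**Figure D4:**
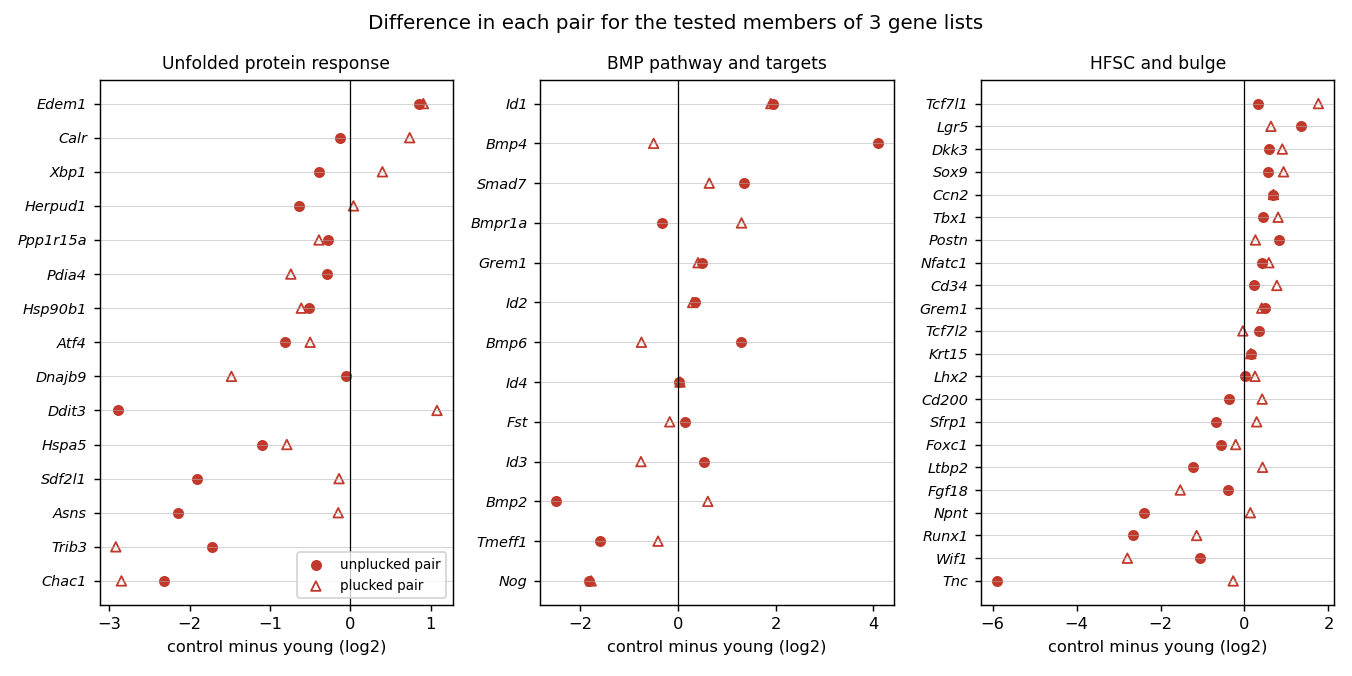
Log2 difference control minus young (x axis) in the unplucked (filled circles) and plucked pair (open triangles) for the tested genes of 3 lists. Most unfolded protein response genes lie left of 0 in both pairs, Id1 and Nog lie apart on opposite sides, and most bulge genes lie close to 0.

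The cell cycle list had 39 genes tested, with 0 passing (1 at an unadjusted p under 0.05), 12 higher (30.8%) and 8 lower (20.5%) in both pairs, beside 30.7% and 28.6% of all genes, and a median of 0.21, and of 0.08 in the unplucked and 0.04 in the plucked pair. Mki67, a marker of cycling cells, was at 2.15 and 5.41 in control cells and at 0.45 and 5.10 in young cells (1.01 ± 0.56, adjusted p = 0.608). At least 2-fold higher in both pairs were 3 of the 39, beside 3.05% of all genes. They were Cdk1, the mitotic kinase, Cdc20, an activator of the anaphase-promoting complex, and Rrm2, a subunit of ribonucleotide reductase. Their differences were 1.74 ± 0.88, 1.12 ± 0.67 and 1.51 ± 0.56, and Cdk1 was dim on the unplucked young array (-3.49). Rrm2 stood at 2.83 and 4.92 in control cells and at 0.98 and 3.76 in young cells. In cKO against aged cells 25 of the 39 list genes were higher and 0 lower in both pairs, with a median of 0.9. The shares of all genes, ignoring size, were not counted for cKO against aged, so nothing is read from these counts. Among 21 p53 targets, 0 passed (2 at an unadjusted p under 0.05), 9 were higher (42.9%) and 7 lower (33.3%), with a median of 0.07. Btg2, an antiproliferative gene, was at 0.05 and -0.12 in control cells and at -1.24 and -1.16 in young cells, and Bbc3, which encodes PUMA, at 0.22 and -0.26 in control cells and at 1.82 and 1.19 in young cells.

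Clock genes were compared because time of day is not labelled. Of 16 tested, 0 passed (1 at an unadjusted p under 0.05), 8 were higher and 1 lower (6.25%) in both pairs, beside 30.7% and 28.6% of all genes, and the median was 0.12. Per2, of the negative limb of the clock, was at 3.09 and 1.41 in control cells and at 1.43 and 0.69 in young cells (1.19 ± 0.38, adjusted p = 0.571). Dbp, a clock output gene, was at 4.74 and 3.29 in control cells and at 4.83 and 3.08 in young cells, and Nr1d1 at 1.24 and -0.17 in control cells and at 2.05 and 0.21 in young cells. Among hemidesmosome and basement membrane genes, 0 of 15 passed (0 at an unadjusted p under 0.05) and the median was 0.24. Col17a1, the transmembrane collagen of the series, was at 7.31 and 6.22 in control cells and at 7.39 and 5.67 in young cells (0.24 ± 0.39, adjusted p = 0.844).

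**Figure D5:**
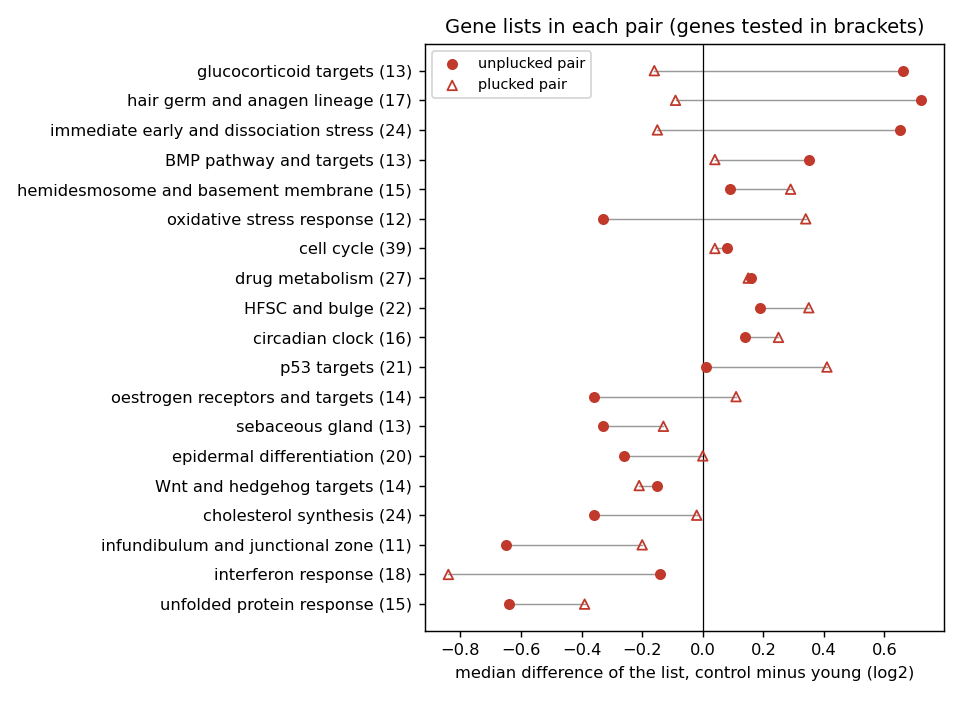
Median log2 difference control minus young (x axis) of each list of pathway and cell identity genes in the unplucked (filled circles) and plucked pair (open triangles), with the number of genes tested in brackets. The unfolded protein response stands at -0.64 and -0.39, and glucocorticoid targets and immediate early genes lie on opposite sides of 0 in the 2 pairs.

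In the interferon and epidermal differentiation lists the median depended on the setting. Of 18 interferon genes tested, 0 passed (2 at an unadjusted p under 0.05), 8 were lower (44.4%) and 2 higher (11.1%) in both pairs, beside 28.6% and 30.7% of all genes, with a median of -0.61 that became 0.13 over the members well above background on all 4 arrays. Gbp2, an interferon-induced GTPase (mm9 chr3:142300719-142300778), was not well above background on either control array (-6.20 and -6.63) and stood at -2.30 and -1.51 in young cells, at least 5.43-fold lower in control cells (adjusted p = 0.53). It was between -2.44 and -0.82 on the 4 cKO and aged arrays, so the control arrays stood apart from all others. Irf7 was at -3.08 and -3.65 in control cells and at -0.87 and -2.73 in young cells (-1.57 ± 0.50, adjusted p = 0.571).

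Of 20 epidermal differentiation genes tested, 0 passed (3 at an unadjusted p under 0.05), 8 were lower and 5 higher (25.0%), beside 28.6% and 30.7% of all genes, with a median of -0.17 that became 0.02 when arrays were centred on their medians. Flg, which encodes filaggrin, was at 1.52 and 2.81 in control cells and at 3.93 and 6.25 in young cells (-2.92 ± 0.79, adjusted p = 0.571, all 3 probes lower). Krt1, the suprabasal keratin, was at 1.33 and 2.56 in control cells and at 3.71 and 3.68 in young cells. Its partner Krt10 was at 3.45 and 3.48 in control cells and at 3.72 and 3.45 in young cells, and Krtdap at 5.63 and 5.44 in control cells and at 5.81 and 4.97 in young cells. Among markers of interfollicular epidermis, Ly6a and Krt1 were therefore lower in control cells in both pairs and Krt10 and Krtdap were not, and their part in the other differences was not tested. In bulk samples fewer cells of a type and less RNA per cell cannot be told apart. Krt16, a stress keratin, was at -2.52 and -0.88 in control cells and at 2.51 and 0.69 in young cells, and Gata6, a factor of the upper follicle, was at -3.52 and -5.20 in control cells, with 1 of 2 well above background, and at -1.61 and -2.76 in young cells. Infundibulum genes had a median of -0.35 (3 of 11 higher and 5 lower in both pairs) and sebaceous gland genes one of -0.08 (2 of 13 higher and 5 lower), with 0 passing in either list and 1 in each at an unadjusted p under 0.05. Cdsn, which encodes corneodesmosin, went the other way (1.18 ± 0.37, adjusted p = 0.571).

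Markers of other cells are given as the sum of their linear levels relative to the array's 75th percentile, unplucked first, and their part in the differences above was not tested. T cell markers (9 genes) summed to 5.38 and 2.92 in control cells and to 4.80 and 3.37 in young cells. Langerhans and myeloid markers (11 genes) summed to 357.3 and 208.9 in control cells and to 186.3 and 221.9 in young cells. That sum was nearly all the Itgam probe, at 8.41 and 7.61 (log2) in control cells and 7.37 and 7.68 in young cells, while Cd207, the langerin of Langerhans cells, was at -2.73 and -4.68 in control cells and -5.69 and -3.67 in young cells, and Lyz2 and Aif1 were dim on all 4 arrays. Fibroblast markers (7 genes) summed to 4.29 and 2.20 in control cells and to 9.20 and 2.48 in young cells, with Lum, Pdgfra and Dpt dim on all 4. Most of the fibroblast sum was the Col1a2 probe, at 2.02 and 0.80 (log2) in control cells and 3.11 and 0.81 in young cells. Col1a1 was at -4.56 and -2.13 in control cells and at -1.58 and -2.97 in young cells.

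The other sums were small or alike. Neutrophil markers (8 genes) summed to 0.686 and 0.376 in control cells and to 0.842 and 0.251 in young cells, with Mpo and Ltf dim on all 4 arrays. Melanocyte markers (8 genes) summed to 5.94 and 2.05 in control cells and to 4.41 and 1.77 in young cells, with Tyrp1 dim. Endothelial markers (7 genes) summed to 3.18 and 2.74 in control cells and to 3.38 and 2.95 in young cells, with Cdh5 and Tie1 dim. Smooth muscle and pericyte markers (6 genes) summed to 3.56 and 2.73 in control cells and to 2.41 and 3.28 in young cells, with Rgs5, Des and Pdgfrb dim and Acta2 and Myh11 well above background on all 4. Adipocyte markers (5 genes) summed to 0.22 and 0.224 in control cells and to 0.228 and 0.322 in young cells, with Plin1 well above background on all 4 and Adipoq, Fabp4, Lep and Cfd dim. Erythroid and muscle markers (6 genes, Hbb-b1, Ckm and Myh4 dim) summed to 1.30 and 0.58 in control cells and to 0.874 and 1.56 in young cells. Merkel and Schwann markers (7 genes, Atoh1 and Sox2 dim) summed to 23.6 and 13.7 in control cells and to 19.2 and 20.6 in young cells. Of the tested markers 0 passed in each list, and at an unadjusted p under 0.05 there were 1 T cell, 2 neutrophil and 1 fibroblast marker (limma).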

How the data were processed

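Gene expression was measured in 12 mouse skin samples, each on 1 one-colour (Cy3) Agilent array. The deposited spot intensities are linear values from the scanner software, Agilent Feature Extraction (version 10.7.3.1 per the file headers), in which spatial and multiplicative detrending and surrogates for low signals were switched on. The flag for being well above background was set by that software. Raw mean intensity and local background, likewise deposited, entered 1 alternative only. The log2 value table of the authors was used as an alternative. The steps behind it are not given in the sources used here. Its values show log2 scale and centring of every probe on its median over the 12 arrays, and each column followed the scanner values with r of at least 0.99988. Its column medians were -0.02 for control, -0.2 for control plucked, 0.02 for young and -0.15 for young plucked HFSCs, and lay between -0.16 and 0.17 on the other 8. Columns of other series numbered 0. No aligner applies, and probe positions, on mm9, come from the array files.

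For this report, control spots were dropped, as were 129 to 269 outlier spots on each array. From the log2 processed intensity the 75th percentile of its array was subtracted, and spots of 1 probe were averaged. Of 55681 probes, 28347 took a symbol from RefSeq by accession and 27334 kept the name in the files, giving 34745 gene names, of which 11204 had several probes. Of several probes, the one brightest on average over the 12 arrays, among those with a value on all 8 HFSC arrays, stood for the gene. Genes were tested when well above background on at least 2 of the 8 HFSC arrays, with limma 3.58.1 in R 4.3.3 (lmFit, eBayes, Benjamini-Hochberg over all genes, threshold 0.05) in an additive fit of mouse type and plucking over the 8 HFSC arrays. For 4 genes an array was missing in the fit, and none of them is named. The difference between the pairs came from a fit with plucking effects for young, for control and for aged with cKO together, which leaves 1 residual degree of freedom. The fit of control against young was tested on simulated data, with log2 shifts added to control arrays in either direction. At an adjusted p under 0.05 (limma), 0 of 50 genes were called at a shift of 2. At shifts of 4 and 8, 24 and 36 of 50 were called, and 3 of 25225 unshifted genes. That 0 genes passed therefore does not show that no gene differed. The number of arrays limits the precision. Figures used matplotlib 3.10.9 in Python 3.11.15.

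Genes named outside lists had a RefSeq symbol (predicted, Rik, olfactory and vomeronasal genes left out). They were the 10 higher and 10 lower with the largest smaller difference of both pairs among those well above background on all 4 arrays, and the 5 each way well above background on both arrays of one group and neither of the other, of which 1 lower gene is not reported here. The rule also named genes passing the test (there were none), up to 3 members of each list with the largest such differences, Esr1, Pgr and Greb1, the sorting markers, sex-linked genes and the first 2 markers of each other cell type. Other list members are named beside their list as examples chosen after their values were seen. The comparison, the rule and the 32 lists were chosen with earlier results of these data known. Alternatives were normexp with quantile scaling (offset 50), centring on the array median, the authors' table, no filter on dim probes, a filter on all 4 arrays, the mean of all probes of a gene, the 4 arrays alone, an intensity trend, other fold thresholds and leaving out each pair.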

Additional observations from a re-analysis of the deposited data

Results flagged for a closer look

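Of the lists of pathways and cell identity with at least 5 genes tested, 4 had a median difference between control and young HFSCs of at least 0.1 (log2) in each pair and of opposite sign in the unplucked and the plucked pair. Below that size, hair germ and anagen genes stood at 0.72 and -0.09. Among lists of other cells and checks, fibroblast markers stood at -1.04 and 0.19, smooth muscle and pericyte markers at 0.49 and -0.28, sex-linked genes at 0.72 and -0.49, sorting markers at -0.26 and 0.29 and housekeeping genes at -0.06 and 0.24. Each pair compares single arrays, and the difference between the pairs was not tested for lists. Oestrogen receptors and targets stood at -0.36 (log2) in the unplucked and 0.11 in the plucked pair. Glucocorticoid targets stood at 0.66 and -0.16: Zbtb16 was at 5.04 on the control and 2.55 on the control plucked array, against 2.95 on the young and 2.92 on the young plucked array, and Fkbp5 at 1.75 and 0.56 in control cells and at -0.88 and 0.94 in young cells. Immediate early and dissociation stress genes stood at 0.65 and -0.15, and oxidative stress genes at -0.33 and 0.34. Txnrd1, a thioredoxin reductase of that list, was at -3.17 and 2.40 in control cells and at 0.38 and 3.21 in young cells. It was thus lower in both pairs and did not change sign as the list median did. The unplucked control array, which enters the first value of each list, had the lowest median correlation with the other HFSC arrays (0.891).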

How the results depend on the processing

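In control against young HFSCs 0 genes passed (limma) under each of the 10 alternatives run, with 732 to 2591 genes at an unadjusted p under 0.05. In the difference between the pairs, 0 passed under each of 6, with 785 to 1699. Counts of genes at least 2-fold apart in both pairs moved with the setting. With normexp and quantile scaling they were 140 higher and 160 lower, and 229 and 230 in cKO against aged. With the array median in place of the 75th percentile, which raised the median of all genes to 0.21 in place of 0.02, there were 1214 higher and 608 lower (66.6% higher, against 47.4%), and 1429 and 734 in cKO against aged. Without a filter on dim probes 1203 were higher. With all 4 arrays well above background there were 412 and 462, and 465 and 636 in cKO against aged. At 1.5-fold there were 2153 and 2081, and 1876 and 2323 in cKO against aged; at 4-fold 113 and 162, and 112 and 282. The filters and fold thresholds change which genes can count. The array median lay further below the 75th percentile in control (-3.01 and -2.88, log2) than in young cells (-2.79 and -2.715). It also lay further below in cKO (-2.80 and -2.84) than in aged cells (-2.44 and -2.58). Centring on the median therefore raised every difference in these pairs. For normexp with quantile scaling, the cause of the lower counts was not tested.

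Of the differences of single genes, 23 over 17 genes changed sign and 1175 did not. With the mean of all probes, Rara was at -0.23, Csf1r 0.40, Flt1 0.34, Krt8 -0.47, Xist 0.61, Ywhaz -0.27 and Greb1 -0.28. With normexp, Cd3e was at 0.01, Flt1 0.08 and Itga6 -0.09. With the array median, Cd3e was at 0.11, Kdr 0.06, Flt1 0.06 and Hba-a1 0.02. Leaving out either pair, Cd207 lay between -1.01 and 2.97, Dct -2.41 and 0.45, Col1a1 -2.98 and 0.84, Hba-a1 -1.50 and 1.16, Krt8 -3.15 and 3.30, Krt18 -0.94 and 0.28, Kdm5d -0.49 and 0.72, Uty -0.55 and 1.24, and Itga6 -0.26 and 0.29. Of list medians, 58 moved by more than the spread of the pairs and 198 did not. Pairing by replicate number was not possible, because each group has 1 array and all arrays carry replicate number 1. The plucking state, which matches the pairs, was a term of the fit instead. With 1 array a group, 2 pairs and slide, scan, age and drug confounded, no difference here can be assigned to tamoxifen.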
